A study of Mus musculus with 8 samples.

Results

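The genes described here are 6 classical markers and regulators of mouse primordial germ cells: the transcription factor genes Prdm1 and Tfap2c, the chromatin-associated factor gene Dppa3, and the interferon-induced transmembrane protein genes Ifitm1, Ifitm2 and Ifitm3. They were chosen by symbol. Every probe set whose platform annotation was exactly one of these symbols was taken, which gave 7 of the 45141 probe sets and 6 of the 17097 genes named by a single symbol. Tfap2c had 2 probe sets and each of the other genes had 1. All values are log2 expression, on the scale of the deposited table.

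The study sorted cells from gastrulating mouse embryos that carried the Mesp1-rtTA and Teto-H2B-GFP transgenes, in which the Mesp1-driven transactivator switches on a nuclear green fluorescent protein. The series is about when heart lineages become restricted. Each array was made from amplified RNA of 50 cells. The 8 arrays fell into 4 groups of 2, GFP+ and GFP- cells at embryonic day (E) 7.5 and GFP+ and GFP- cells at E6.5, and all 4 groups carried both transgenes. The sources used here do not give the strain, how the transactivator was induced or how many embryos lay behind an array. Because the GFP marks activity of the transgene pair, it can differ from expression of Mesp1 itself. In a sort of 50 cells, fewer cells of a type and less RNA per cell cannot be told apart.

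Primordial germ cells are the founders of sperm and eggs. In the mouse they are set aside from the proximal posterior epiblast when BMP signals from the neighbouring extraembryonic ectoderm reach cells made competent by Wnt, and they gather at the base of the allantois among extraembryonic mesoderm cells. Prdm1, which encodes the repressor Blimp1, and Tfap2c, which encodes AP-2 gamma, are required to specify them. Ifitm1 and Ifitm3 (also called fragilis) were among the earliest surface markers described for their precursors, and Dppa3 (also called Stella) marks the founder cells themselves. None of these genes is restricted to germ cells: Prdm1 is also active in visceral endoderm, Tfap2c in extraembryonic ectoderm, and Ifitm genes respond to interferon in many tissues, where their proteins restrict virus entry.

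Mesp1 gave the check of the sort. It read 8.75 and 8.65 in GFP+ and 7.76 and 8.06 in GFP- cells at E7.5, and 9.75 and 10.03 in GFP+ and 5.64 and 6.26 in GFP- cells at E6.5 (replicates 1 and 2 in each pair), so GFP+ cells lay above GFP- cells at both stages without overlap. Arrays of replicate number 2 had higher medians (4.54 to 4.59) than arrays of number 1 (4.20 to 4.23), an offset shared by all 4 groups. Differences within each replicate number are therefore given beside the pooled ones. A probe set was tested if at least 2 of 8 arrays exceeded 4.38, the median of all deposited values, and each gene was tested once, on its brightest probe set. Nothing in the deposited values measures background, so this filter value is a working limit and not a detection call. The test was limma with Benjamini-Hochberg adjustment over 11706 genes at a threshold of 0.05.

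Of the 6 germ cell genes, 4 passed the filter: Ifitm1, Ifitm2 and Ifitm3 in all 8 arrays and Tfap2c in 6 of 8. Prdm1 and Dppa3 lay below 4.38 in all 8 arrays, and so did the other probe set of Tfap2c. The plot of all probe sets by array shows these levels. Among the genes tested, Ifitm1 varied most across the groups, Ifitm2 was nearly level, Ifitm3 read lower at E7.5 than at E6.5 in GFP+ cells, and Tfap2c varied as much between replicates as between groups. By limma 0 of the 4 passed in any of the 7 contrasts, where 0% to 0.256% of all genes passed. At an unadjusted p under 0.05 Ifitm1 was 1 of 4 in 6 contrasts and none was in the contrast of fractions at E7.5, with or without the filter. Of all 11706 genes, 317 to 843 reached that level in those 6 contrasts and 282 did for fractions at E7.5. With the replicate number as a block, Ifitm1 passed in 1 contrast, the difference between stages averaged over fractions.

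**Figure D1:**
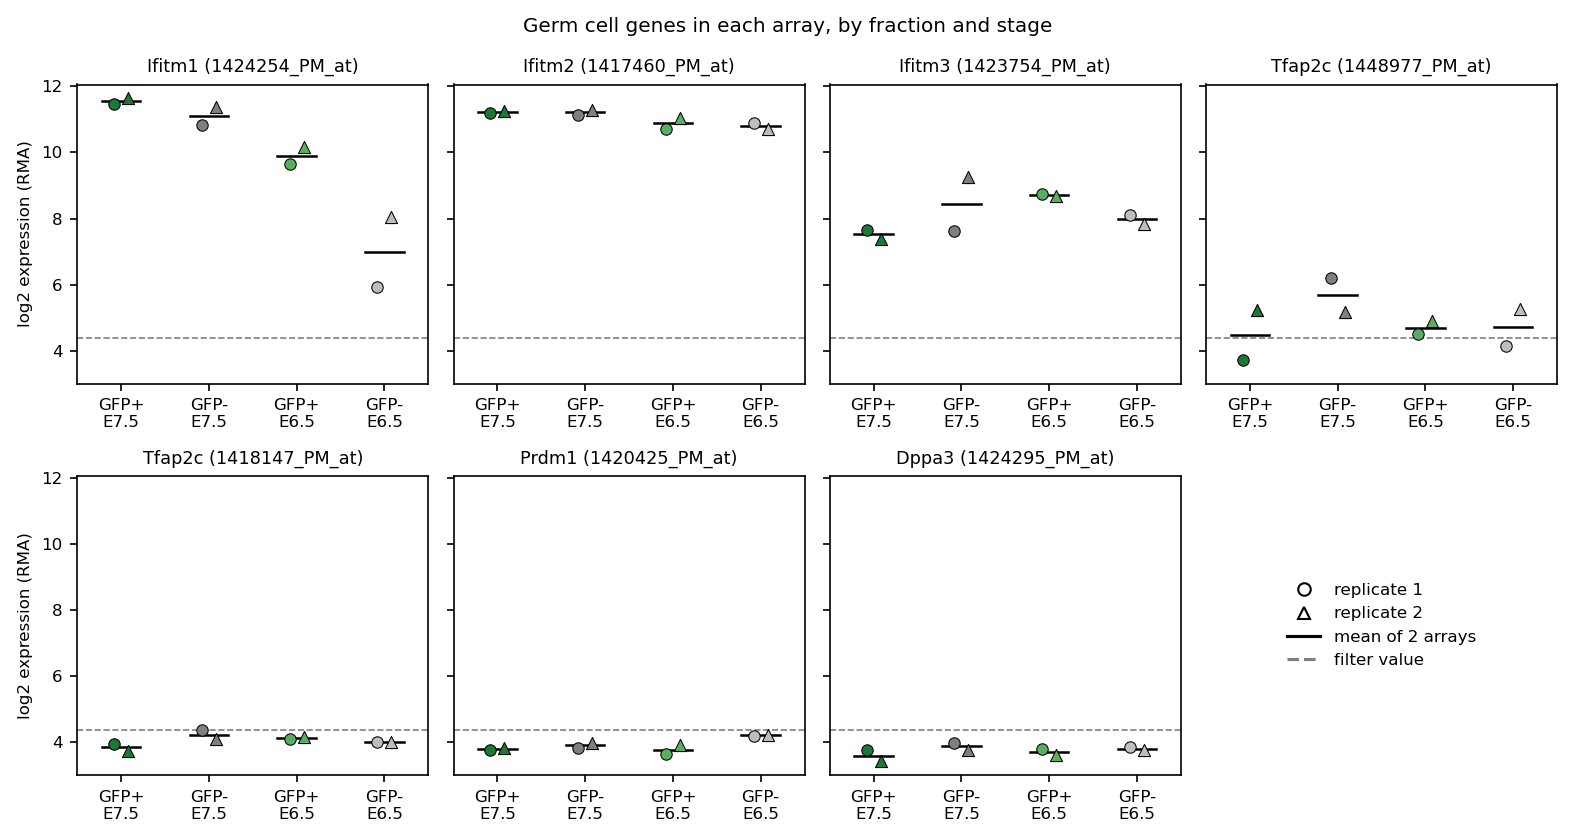
Log2 expression (vertical axis, RMA values) of the 7 probe sets of the germ cell genes in the 8 arrays, by fraction and stage (horizontal axis). Circles are replicate 1, triangles replicate 2, black bars the mean of 2 arrays and the dashed line the filter value of 4.38. Ifitm1 runs from 5.92 to 11.65, whereas Prdm1, Dppa3 and 1 probe set of Tfap2c stay below the line in all 8 arrays.

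Ifitm1, whose protein lies in the cell membrane and has been linked to the movement and adhesion of early germ cells, was high in both fractions at E7.5, lower in GFP+ cells at E6.5 and lowest in GFP- cells at E6.5. At E7.5 its probe set read 11.47 and 11.65 in GFP+ cells, against 10.83 and 11.39 in GFP- cells. At E6.5 it read 9.65 and 10.16 in GFP+ cells, against 5.92 and 8.05 in GFP- cells. The order of the group means was thus GFP+ E7.5, GFP- E7.5, GFP+ E6.5 and GFP- E6.5 (11.56 ± 0.12, 11.11 ± 0.40, 9.90 ± 0.36 and 6.98 ± 1.5, mean ± SD, n = 2). Neighbours in this order did not overlap. Between fractions this was so for 21.1% of all genes at E7.5 and 28.5% at E6.5. The share for GFP- E7.5 against GFP+ E6.5 was not counted. The Ifitm1 difference between the leading pair was small beside its SE, and that between the fractions at E6.5 rested on GFP- arrays that lay far apart.

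Averaged over both fractions, Ifitm1 was 2.89 higher at E7.5 than at E6.5 (SE 0.46, 7.41-fold, 95% interval 1.81 to 3.97, limma adjusted p = 0.0777). The differences within replicates 1 and 2 were 3.36 and 2.42. With the replicate block limma gave an adjusted p of 0.0404 for this contrast, in which 0.803% of all genes passed with the block and 0.256% without it. With no filter the limma adjusted p was 0.104. Leaving out each array in turn gave differences of 2.36 to 3.42, each from a fit with 1 array left in a group. The highest came without GFP- E6.5 replicate 2.

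Both fractions had higher Ifitm1 values at E7.5, without overlap between the stages, as was so for 27.0% of all genes in GFP+ and 26.7% in GFP- cells. In GFP- cells Ifitm1 was 4.12 higher at E7.5 than at E6.5 (SE 0.65, 17.4-fold, 4.90 and 3.34 within replicates 1 and 2, limma adjusted p = 0.106, and 0.0516 with the replicate block). Without GFP- E6.5 replicate 2 this value was 5.19, and without GFP- E6.5 replicate 1 it was 3.06, each with 1 array left in that group. In this contrast 0.0940% of all genes passed, and 0.333% with the block. In GFP+ cells Ifitm1 was 1.65 higher at E7.5 than at E6.5 (SE 0.65, 1.82 and 1.49 within the replicates, limma adjusted p = 1), where 0.0256% of all genes passed with and without the block.

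Between fractions, Ifitm1 was 0.45 higher in GFP+ than in GFP- cells at E7.5 (SE 0.65, 0.64 and 0.26 within the replicates, limma adjusted p = 1), where 0 of 11706 genes passed (0%, and 282 genes at an unadjusted p under 0.05), and 21.1% of all genes had groups that did not overlap. At E6.5 it was 2.92 higher in GFP+ cells (SE 0.65, 7.56-fold, 3.73 and 2.11 within the replicates, limma adjusted p = 0.262). There 0.0769% of all genes passed, 0.256% with the block, and the groups did not overlap for 28.5%. That value was 1.86 without GFP- E6.5 replicate 1 and 3.98 without GFP- E6.5 replicate 2. The change of the gap itself, E7.5 minus E6.5, was -2.47 (SE 0.92, -3.08 and -1.86 within the replicates, unadjusted p = 0.0305 and limma adjusted p = 1). In that test 0% of all genes passed (0 of 11706, and 317 at an unadjusted p under 0.05). Averaged over stages, Ifitm1 was 1.68 higher in GFP+ than in GFP- cells (SE 0.46, 2.18 and 1.18 within the replicates, limma adjusted p = 0.400), where 0.00854% of all genes passed and 0.0683% with the block.

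**Figure D2:**
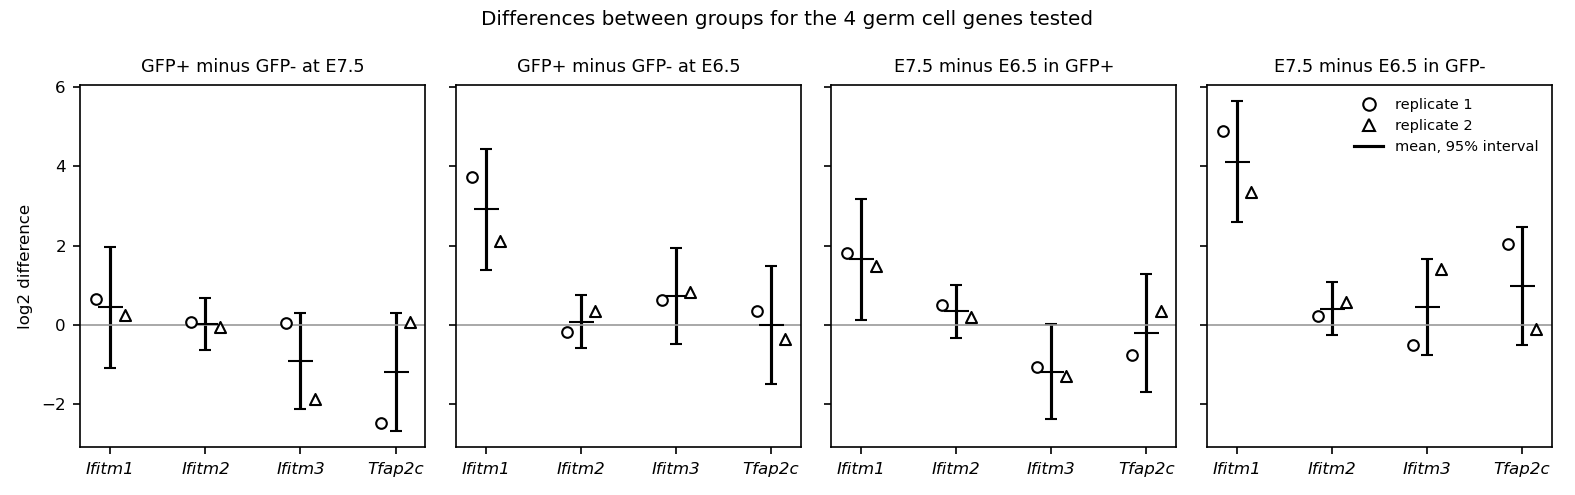
Log2 differences (vertical axis) of the 4 germ cell genes tested, for the contrasts of fractions at E7.5 and at E6.5 and of stages in GFP+ and in GFP- cells. Bars are the pooled difference with its 95% interval from limma, circles and triangles the differences within replicates 1 and 2. The interval of Ifitm1 lies above 0 in 3 of the 4 contrasts before adjustment for the number of genes. None of the 16 differences passed after it, in contrasts where 0% to 0.0940% of all genes passed.

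Marker genes of mesoderm ran in part alongside Ifitm1, as the plot beside marker lists shows. The 8 streak and nascent mesoderm genes tested averaged 8.12 and 7.04 in GFP+ and 6.60 and 6.65 in GFP- cells at E7.5, and 9.14 and 9.03 in GFP+ and 5.90 and 7.42 in GFP- cells at E6.5. These 8 include Mesp1, which with its reporter defines the sort, so their difference between fractions is not fully independent of it. In GFP- cells at E6.5 all 8 were higher in replicate 2 than in replicate 1, the same order as Ifitm1 (5.92 in replicate 1 and 8.05 in replicate 2). This order was not particular to mesoderm: all 12 visceral endoderm genes and all 4 surface ectoderm genes tested also read higher in replicate 2 there, and arrays of that number had higher medians in all groups. It was not shared by every list: epiblast (4 of 9 higher in replicate 2) and blood and endothelium (4 of 7) were split. Of extraembryonic ectoderm genes 5 of 7 were higher in replicate 2, and of extraembryonic mesoderm genes 4 of 5. Between stages the streak list ran the other way in GFP+ cells, with all 8 genes lower in both E7.5 arrays than in both E6.5 arrays. The 5 extraembryonic mesoderm genes tested, which mark the tissue where germ cells gather, averaged 8.55 and 7.02 in GFP+ and 7.88 and 8.80 in GFP- cells at E7.5, and 4.67 and 5.95 in GFP+ and 4.74 and 5.08 in GFP- cells at E6.5. Of these, 4 in GFP+ and 5 in GFP- cells were higher in both E7.5 arrays than in both E6.5 arrays. Over all genes the stages did not overlap, in either direction, for 27.0% in GFP+ and 26.7% in GFP- cells. The part of either cell type in the Ifitm1 values was not tested.

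**Figure D3:**
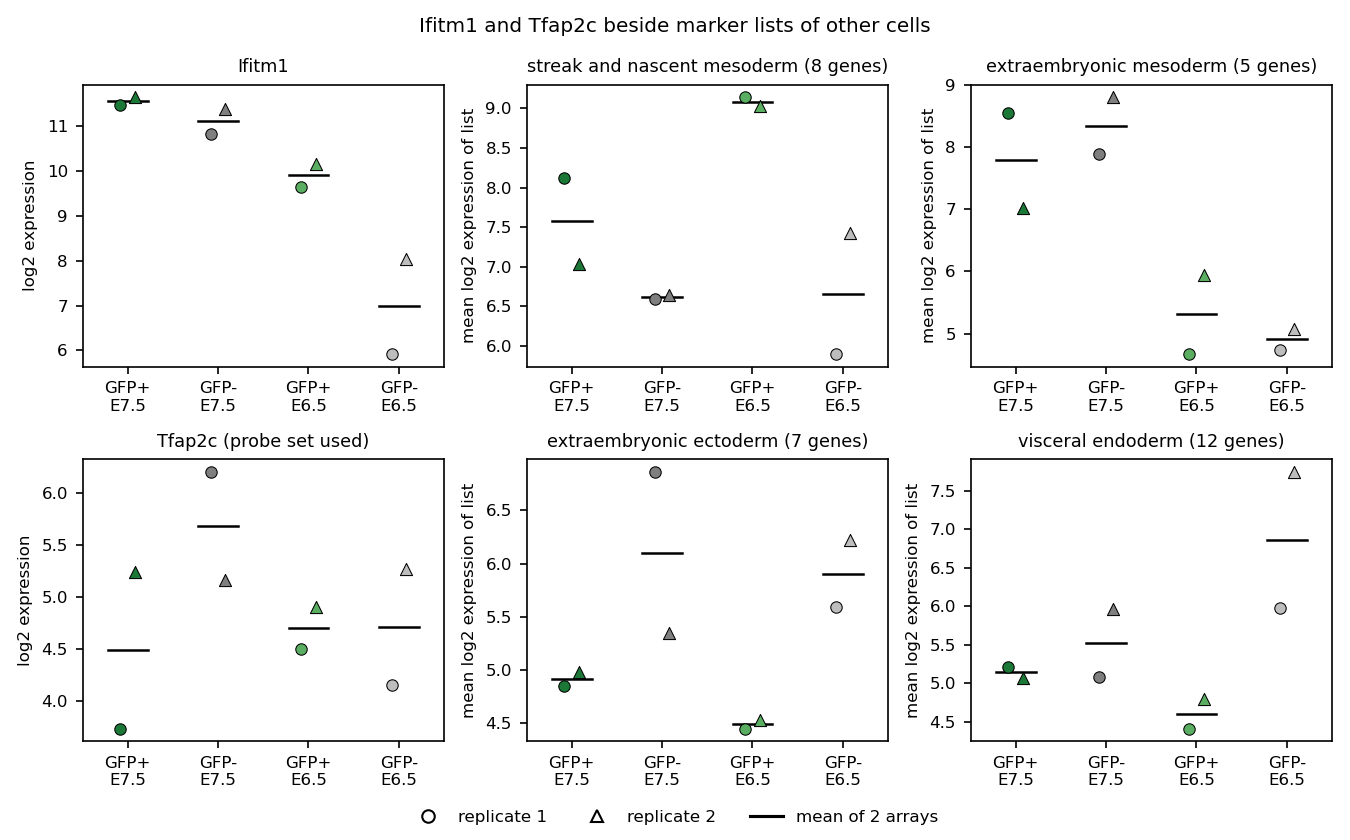
Log2 expression of Ifitm1 and Tfap2c and mean log2 expression of 4 marker lists (vertical axes, each with its own range) in the 8 arrays, by fraction and stage. Circles are replicate 1, triangles replicate 2 and bars the mean of 2 arrays. Extraembryonic mesoderm genes are higher at E7.5 (7.02 to 8.80) than at E6.5 (4.67 to 5.95), and both Tfap2c and the extraembryonic ectoderm list have their highest array in GFP- E7.5 replicate 1.

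The genes most like Ifitm1 were found as those with the smallest root mean square difference over the 8 arrays, after each gene was centred on its own mean. They were Bmp7 (0.48), which encodes a BMP ligand, Dll3 (0.54), which encodes a Notch ligand of presomitic mesoderm, and Vcan (0.66), which encodes the matrix proteoglycan versican. Ifitm1 itself had a root mean square of 1.87 about its own mean. Bmp7 read 7.60 and 8.41 in GFP+ and 7.78 and 8.21 in GFP- cells at E7.5, and 7.14 and 7.09 in GFP+ and 3.76 and 4.81 in GFP- cells at E6.5. All 3 shared the low GFP- E6.5 pair, with replicate 1 the lower.

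Ifitm2, a paralogue of Ifitm1 with a similar role at the membrane, was nearly the same in all 8 arrays. It read 11.21 and 11.25 in GFP+ and 11.13 and 11.29 in GFP- cells at E7.5, and 10.71 and 11.06 in GFP+ and 10.89 and 10.71 in GFP- cells at E6.5. Its whole range was 0.58, against 5.72 for Ifitm1. Every E7.5 array lay above every E6.5 array, by a mean of 0.38 (SE 0.20, 95% interval -0.09 to 0.85, 0.36 and 0.39 within the replicates, limma adjusted p = 0.864). The stages did not overlap, in either direction, for 27.0% of all genes in GFP+ and 26.7% in GFP- cells. The share over both fractions together was not counted. Between fractions Ifitm2 differed by 0.02 at E7.5 (95% interval -0.65 to 0.68) and by 0.08 at E6.5 (-0.58 to 0.75), and the arrays of the fractions overlapped at both stages. Its nearest genes were Arl3, Sms and Ccdc124 (root mean square difference 0.09 to 0.11 over 8 arrays, against 0.22 for Ifitm2 about its own mean).

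Ifitm3, the classical fragilis gene, read lower at E7.5 in GFP+ cells, where Ifitm1 read higher. In GFP+ cells it read 7.67 and 7.38 at E7.5, against 8.73 and 8.67 at E6.5, a difference of -1.18 (SE 0.51, 95% interval -2.39 to 0.03, -1.07 and -1.29 within the replicates, unadjusted p = 0.0548, limma adjusted p = 1). The groups did not overlap, as was so for 27.0% of all genes in this contrast. In GFP- cells the arrays at E7.5 read 7.61 and 9.24, against 8.11 and 7.84 at E6.5, so the E7.5 arrays lay on both sides of the E6.5 arrays, whereas 26.7% of all genes had no overlap there. The difference was 0.45 (SE 0.51, -0.50 and 1.41 in replicates 1 and 2, limma adjusted p = 1), and it was -0.37 when GFP- E7.5 replicate 2 was left out.

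Between fractions Ifitm3 was 0.90 lower in GFP+ than in GFP- cells at E7.5 (difference -0.90, SE 0.51, 0.06 and -1.86 in replicates 1 and 2, limma adjusted p = 1), and -0.0849 when GFP- E7.5 replicate 2 was left out. At E6.5 it was 0.73 higher in GFP+ cells (SE 0.51, 0.62 and 0.83 within the replicates, limma adjusted p = 1), with no overlap, as for 28.5% of all genes. The change of the gap was -1.63 (SE 0.73, unadjusted p = 0.0589, limma adjusted p = 1). The array that stood apart, GFP- E7.5 replicate 2 at 9.24, exceeded its partner also in the means of several marker lists. These were extraembryonic mesoderm (8.80 against 7.88, 4 of 5 genes higher), visceral endoderm (5.97 against 5.08, 10 of 12), surface ectoderm (8.07 against 7.67, 3 of 4), epiblast (8.25 against 8.22, 7 of 9) and streak (6.65 against 6.60, 5 of 8). In the visceral endoderm list Spink1 read 3.64 in replicate 1 and 9.41 in replicate 2. The means of extraembryonic ectoderm (5.34 against 6.86, 3 of 7 higher) and of blood and endothelium (6.17 against 6.46, 3 of 7) were lower. Arrays of replicate number 2 had higher medians in all groups. The part of any of these in the Ifitm3 value was not tested. Prkd2, Acy1 and Commd9 were the genes most like Ifitm3 (root mean square difference 0.22 to 0.28 over 8 arrays, against 0.62 for Ifitm3 about its own mean).

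Ifitm1, Ifitm2 and Ifitm3 are neighbours on mouse chromosome 7. In the RefSeq annotation of GRCm38.p6 the order there is Ifitm5, Ifitm2, Ifitm1, the pseudogene Gm7514, the non-coding gene Gm33504, Ifitm3 and Ifitm6. Whether the probes of a paralogue also bind its neighbours' transcripts was not tested. RefSeq start-site windows of GRCm38.p6 were found for 4 of the 6 genes (Prdm1, Ifitm1, Ifitm2 and Ifitm3). Those of the 3 neighbours are shown because these genes share a locus and differ in their values. Each runs from 120 bases before the annotated start to 30 after it, 5′ to 3′ on the gene's strand: chr7:140967956-140968105 (plus strand) for Ifitm1, chr7:140955932-140956081 (minus strand) for Ifitm2 and chr7:141010715-141010864 (minus strand) for Ifitm3. Capitals mark matches to the core of the interferon-stimulated response element, searched as GAAA, any 2 bases and GAAA.
Ifitm1: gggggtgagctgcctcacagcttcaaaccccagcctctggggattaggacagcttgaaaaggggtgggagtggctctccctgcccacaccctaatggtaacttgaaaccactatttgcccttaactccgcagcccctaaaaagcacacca
Ifitm2: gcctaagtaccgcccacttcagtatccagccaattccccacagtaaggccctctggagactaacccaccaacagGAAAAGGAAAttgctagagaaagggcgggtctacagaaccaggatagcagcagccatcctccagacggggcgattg
Ifitm3: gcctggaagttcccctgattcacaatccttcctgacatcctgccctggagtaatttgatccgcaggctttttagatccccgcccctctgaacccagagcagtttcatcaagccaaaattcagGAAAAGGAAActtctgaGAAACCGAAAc

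Searched on both strands, these letters occurred once in the window of Ifitm2, beginning 46 bases before the start, and in 2 places in that of Ifitm3, beginning at bases 3 and 20 counted from the start as base 1. The windows of Ifitm1 and Prdm1 held no match. Of all 32851 RefSeq windows of this length, 503 (1.53%) held at least 1 match. A match is a stretch of letters and no evidence of binding. Of 12 other interferon-induced genes listed, 5 were tested (Irf1, Irf7, Irf9, Ifit3 and Ifi35). In any contrast 0 of the 5 passed, with or without the replicate block. Per contrast 0% to 0.256% of all genes passed, and 0% to 0.803% with the block, so this count does not set the 5 apart. The median difference of the 5 genes, E7.5 minus E6.5 over both fractions, was 0.14, against -0.02 for all genes. Irf9, a subunit of the interferon-activated complex, was at 0.18 (SE 0.49) and Irf1, an interferon-induced regulator, at -0.55 (SE 0.26).

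Of 4 other Ifitm genes listed, 3 were on the table under their symbol, and these were low or level. Ifitm5 was not analysed here. Ifitm6 read 2.39 to 3.15 and Ifitm7 2.93 to 3.36 over the 8 arrays, all below the filter value. Ifitm10, the only one of these tested, read 4.87 and 5.12 in GFP+ and 4.63 and 4.80 in GFP- cells at E7.5, and 4.89 and 5.20 in GFP+ and 4.81 and 4.93 in GFP- cells at E6.5. Its difference between stages over both fractions was -0.10 (SE 0.20).

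Tfap2c, the AP-2 gene that acts with Prdm1 in specifying germ cells, was uneven between replicates. Its brighter probe set read 3.73 and 5.24 in GFP+ and 6.20 and 5.16 in GFP- cells at E7.5, and 4.49 and 4.90 in GFP+ and 4.15 and 5.26 in GFP- cells at E6.5. Arrays of all 4 groups overlapped in the contrasts of fractions at E7.5 and E6.5 and of stages. The fraction difference at E7.5 was -1.19 (SE 0.63, 95% interval -2.68 to 0.29, -2.47 and 0.08 within replicates 1 and 2, limma adjusted p = 1), and at E6.5 it was -0.01 (SE 0.63, 0.35 and -0.37 within the replicates). The E7.5 value was -0.44 without GFP+ E7.5 replicate 1, -0.68 without GFP- E7.5 replicate 1 and -1.95 without GFP+ E7.5 replicate 2. Averaged over fractions, the stage difference was 0.38 (SE 0.45, limma adjusted p = 1).

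The 7 extraembryonic ectoderm genes were split in the group where Tfap2c was highest, with 4 higher in GFP- E7.5 replicate 1, the array of the highest Tfap2c value, and 3 higher in replicate 2. In GFP- cells at E7.5 the trophoblast regulator genes Elf5 and Esrrb read 6.60 and 7.36 in replicate 1, against 3.45 and 3.02 in replicate 2. Wnt7b, a Wnt ligand gene of the same tissue, read 7.33 in replicate 1 and 4.25 in replicate 2, and the homeobox gene Rhox5 read 9.77 and 7.12. The other genes ran the other way: Cdx2, a trophoblast regulator gene, read 7.60 in replicate 1 and 8.04 in replicate 2, Ascl2 5.03 and 5.49, and Rhox6 4.34 and 6.04. The list averaged 6.86 in replicate 1 and 5.34 in replicate 2. Over the other groups the list averaged 4.85 and 4.98 in GFP+ cells at E7.5, 4.44 and 4.53 in GFP+ cells at E6.5, and 5.59 and 6.22 in GFP- cells at E6.5. In those 3 groups Tfap2c was also lower in replicate 1 than in replicate 2, as the list mean and the array median were. Between fractions at E6.5 the 2 differed. The list mean was higher in both GFP- arrays than in both GFP+ arrays, whereas Tfap2c averaged 4.70 in GFP+ and 4.71 in GFP- cells. The part of extraembryonic ectoderm in the Tfap2c values was not tested. The genes most like Tfap2c were 4930515G01Rik, Ctdspl and Ccdc28a (root mean square difference 0.30 for each over 8 arrays, against 0.72 for Tfap2c about its own mean).

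The dimmer Tfap2c probe set read 3.95 and 3.73 in GFP+ and 4.36 and 4.09 in GFP- cells at E7.5, and 4.10 and 4.14 in GFP+ and 4.01 and 4.02 in GFP- cells at E6.5. It lay below the filter value throughout and was not tested. Of the other AP-2 genes, Tfap2b lay below 4.38 in all 8 arrays and Tfap2e in 7 of 8. Tfap2a, which encodes AP-2 alpha of surface ectoderm and neural crest, read 4.74 and 5.16 in GFP+ and 6.95 and 7.35 in GFP- cells at E7.5. At E6.5 it read 5.0 and 6.93 in GFP+ and 5.18 and 5.46 in GFP- cells. Its fraction difference at E7.5 was -2.20 (SE 0.595, limma adjusted p = 1) and at E6.5 0.64 (SE 0.595, limma adjusted p = 1). Tfap2d followed the replicate number in all 4 groups (3.81 to 4.01 in replicate 1 and 4.80 to 5.18 in replicate 2).

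Prdm1, the gene of the repressor that silences the somatic programme in germ cell precursors, read 3.75 and 3.83 in GFP+ and 3.82 and 3.98 in GFP- cells at E7.5, and 3.65 and 3.90 in GFP+ and 4.20 and 4.23 in GFP- cells at E6.5. The GFP- E6.5 pair was the highest and overlapped none of the other groups. The difference of fractions at E6.5 was -0.44 (SE 0.23 in the fit with no filter, limma adjusted p = 1, -0.54 and -0.33 within the replicates). Visceral endoderm genes, whose tissue also uses Prdm1, were likewise highest there. The 12 genes of that list averaged 4.41 and 4.79 in GFP+ and 5.98 and 7.74 in GFP- cells at E6.5, and 9 of 12 were lower in both GFP+ arrays than in both GFP- arrays. Between these groups 28.5% of all genes did not overlap, in either direction. At E7.5 they averaged 5.21 and 5.07 in GFP+ and 5.08 and 5.97 in GFP- cells. Their part in the Prdm1 value was not tested, and a size measured below the filter value is uncertain.

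Dppa3, whose product protects methylation at imprinted genes in the egg and early embryo, read 3.77 and 3.42 in GFP+ and 3.97 and 3.77 in GFP- cells at E7.5, and 3.79 and 3.61 in GFP+ and 3.85 and 3.75 in GFP- cells at E6.5. The 8 values spanned 0.55, and replicate 1 exceeded replicate 2 in all 4 groups. Its difference between fractions was -0.28 at E7.5 and -0.10 at E6.5 (SE 0.24 in the fit with no filter, limma adjusted p = 1 for both).

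Further germ cell genes were compared as a list of 16 that also holds pluripotency genes kept on in germ cells. Of these, 13 were on the table under their symbol and 8 passed the filter, and Nanos3, Alpl and Cxcr4 were not analysed here. Prdm14, which acts with Prdm1 and Tfap2c, read 2.68 to 3.57 over the 8 arrays, and Kit, which encodes a receptor of migrating germ cells, read 3.11 to 4.01, all below the filter value. Nanog, a pluripotency factor gene that germ cells express again, was the 1 of 8 that passed in any contrast without the replicate block. It read 5.07 and 4.78 in GFP+ and 5.07 and 6.19 in GFP- cells at E7.5, and 7.67 and 7.76 in GFP+ and 7.78 and 8.11 in GFP- cells at E6.5. It fell by 2.55 between the stages over both fractions (SE 0.29, limma adjusted p = 0.0247), a contrast in which 0.256% of all genes passed. Each of its E7.5 arrays lay below each of its E6.5 arrays, and the share of all genes with such an order was not counted.

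Dppa5a, a pluripotency-associated gene, read 8.24 and 7.01 in GFP+ and 7.22 and 6.16 in GFP- cells at E7.5, and 10.42 and 9.67 in GFP+ and 10.91 and 9.75 in GFP- cells at E6.5. Its stage difference was -3.03 (SE 0.44, limma adjusted p = 0.0603), and it passed with the replicate block (limma adjusted p = 0.00302). Dnd1, which encodes an RNA-binding protein needed for germ cell survival, read 6.36 and 6.68 in GFP+ and 5.55 and 5.08 in GFP- cells at E7.5, and 5.64 and 5.95 in GFP+ and 4.98 and 5.67 in GFP- cells at E6.5. It was 0.84 higher in GFP+ cells over both stages (SE 0.25, limma adjusted p = 0.514). The fractions overlapped at E6.5 and did not at E7.5, where 21.1% of all genes had no overlap. Sox2, an epiblast and neural gene, was 1.73 lower in GFP+ cells (difference -1.73, SE 0.48, limma adjusted p = 0.412), of uncertain size because all 4 GFP+ arrays and 1 GFP- array lay below the filter value. The list's median was -0.29 between stages and -0.16 between fractions, against -0.0211 and 0.0034 for all genes. Of 6 genes of later germ cells, 2 (Sycp3 and Tdrd1) were tested and 0 passed in any contrast, where 0% to 0.256% of all genes passed.

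Genes that signal to germ cell precursors were mixed. Of 13 listed, 11 were tested and 0 passed in any contrast, where 0% to 0.256% of all genes passed. Bmp4, the BMP ligand that induces germ cells, read 8.43 and 7.22 in GFP+ and 7.53 and 8.62 in GFP- cells at E7.5, and 3.97 and 4.16 in GFP+ and 5.50 and 6.69 in GFP- cells at E6.5. Every E7.5 array lay above every E6.5 array, by a mean of 2.86 (SE 0.42, limma adjusted p = 0.0618), and the share of all genes with such an order was not counted. The size of this stage difference is uncertain, since both GFP+ values at E6.5 (3.97 and 4.16) lay below the filter value. Bmp8b, a second inducing BMP, was at 0.31 in the same contrast (SE 0.34). Wnt3, which makes the epiblast competent, read 5.86 and 4.31 in GFP+ and 3.85 and 4.15 in GFP- cells at E7.5, and 6.69 and 6.74 in GFP+ and 4.12 and 4.82 in GFP- cells at E6.5. Over both stages Wnt3 was 1.66 higher in GFP+ cells (SE 0.37, limma adjusted p = 0.278), of uncertain size because only 4 of its 8 arrays exceeded the filter value. Smad1, a BMP effector gene, was 1.68 higher (SE 0.37, limma adjusted p = 0.278). Cxcl12, a chemokine gene that guides migrating germ cells, was at -1.57 (SE 0.35, limma adjusted p = 0.278).

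Without the block 1 of the 7 pathway lists had more than 1 call, the somatic mesoderm genes that Prdm1 holds down in germ cell precursors. With the block the list of further germ cell genes had 2, Nanog and Dppa5a, for stages averaged over fractions, where 0.803% of all genes passed. Of the 6 somatic genes listed, 5 were tested, and Hoxb1, Mesp1 and Snai1 were higher in GFP+ than in GFP- cells at E6.5 (differences of 3.33, 3.94 and 3.13, limma adjusted p = 0.0312, 0.0209 and 0.0495). In this contrast 0.0769% of all genes passed, and 0.256% with the block. The size for Hoxb1 is uncertain, since both GFP- values at E6.5 (3.24 and 3.80) lay below the filter value. Mesp1 and its reporter define the sort, so its call is no independent result. Hoxb1, a Hox gene of posterior mesoderm, also rose with stage in GFP- cells, where it read 9.58 and 9.69 at E7.5, against 3.24 and 3.80 at E6.5. The difference was 6.11 (SE 0.32, limma adjusted p = 0.00116), of uncertain size for the same reason. In GFP+ cells Hoxb1 was 3.12 higher at E7.5 than at E6.5 (SE 0.32, limma adjusted p = 0.0625). Averaged over fractions it was 4.62 higher (SE 0.23, limma adjusted p = 0.000683), also of uncertain size, where 0.256% of all genes passed. The list's median, with Mesp1 included, was 3.13 for the fractions at E6.5, against 0.01 for all genes, and 0.34 at E7.5, against -0.01. At E6.5 the fraction differences of Evx1 and Fgf8, the other genes tested, were 2.42 and 0.48. Mesp1, Evx1 and Fgf8 are also in the streak list above. The plot of germ cell genes and related lists gives the averaged differences of all genes tested.

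**Figure D4:**
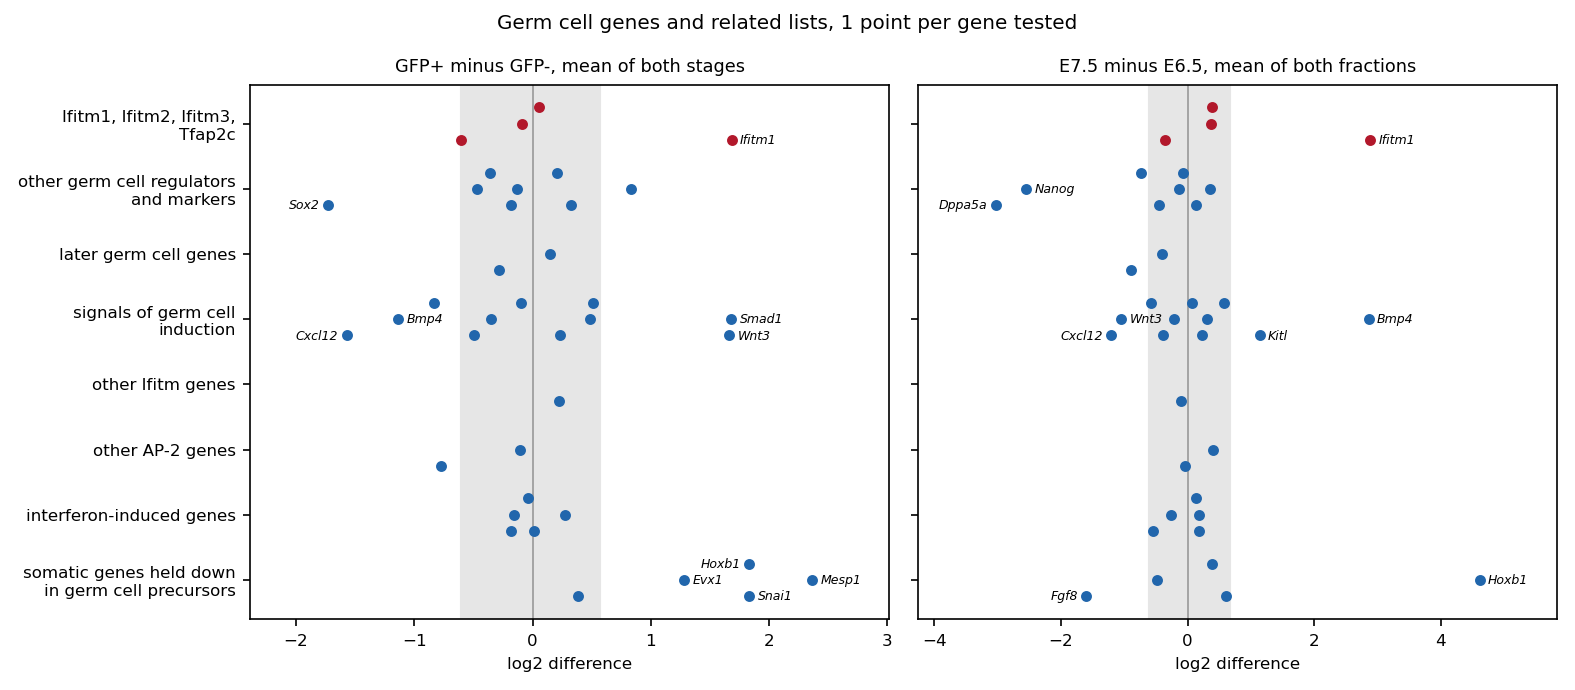
Log2 differences (horizontal axes) between GFP+ and GFP- cells averaged over stages, left, and between E7.5 and E6.5 averaged over fractions, right. Each point is a gene tested, red for the germ cell genes described above and blue for the related lists, and names are given past 1 in either direction. The grey band runs from percentile 5 to percentile 95 of 11706 genes (-0.61 to 0.57, left, and -0.61 to 0.67, right), and Ifitm1 lies outside it in both, at 1.68 and 2.89.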

How the data were processed

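The authors deposited log2 expression values per probe set, made with RMA per the submitters' processing notes, whose version was not given in the sources used here. Per the labels' protocols, RNA of 50 cells was amplified over 25 PCR cycles, and the arrays were Affymetrix Mouse Genome 430 PM strips. Names came from the platform annotation, for probe sets with 1 symbol (28898, against 551 with several and 15692 with none). Probe sets exceeding 4.38 in at least 2 arrays were kept, giving 11706 genes, each by its brightest probe set. limma 3.58.1 in R 4.3.3 fitted the 4 group means on all 8 arrays (residual degrees of freedom 4, prior 3.21), with 7 contrasts, and was tested on simulated data. Arrays that share a number deviated together across genes (r between 0.401 and 0.532 in the 6 group pairs), and the leading principal component (36.6% of variance) separated the numbers. The labels do not say what a number shares, so the block was an alternative. Other alternatives were no or a stricter filter, mean or single probe sets, joint quantile normalization, and leaving out each array. The labels call the replicates biological without naming litters, so p-values measure the spread between arrays. The number of arrays limits the precision. The genes and lists were chosen with earlier results of these data known. Named list genes were the up to 4 with the largest mean absolute difference, plus germ cell, Ifitm and AP-2 genes fixed by name. Genes named outside that rule (Ifi35, Elf5, Esrrb, Wnt7b, Rhox5, Cdx2, Ascl2 and Rhox6) were chosen after their values were seen.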

Additional observations from a re-analysis of the deposited data

Results flagged for a closer look

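In 3 comparisons on probe sets below the filter value, the groups moved in opposite directions in every replicate. None was tested. For the dimmer Tfap2c probe set the GFP+ minus GFP- difference was -0.39 at E7.5 and 0.10 at E6.5, a change of the gap of -0.49. The same values seen by stage were -0.28 in GFP+ and 0.21 in GFP- cells, E7.5 minus E6.5. The brighter Tfap2c probe set gave -2.81 and 0.44 for this change within replicates 1 and 2. For Dppa3 the E7.5 minus E6.5 difference was -0.11 in GFP+ and 0.07 in GFP- cells, a change of -0.18.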

How the results depend on the processing

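The 28 differences of Ifitm1, Ifitm2, Ifitm3 and Tfap2c were recomputed under 14 alternatives each, and 374 of 392 values kept their direction and side of the threshold. With the replicate block 1 of the 4 genes passed for stages averaged over fractions, Ifitm1, and the block changed no other call among these genes. Ifitm1 also changed side of the threshold without GFP- E6.5 replicate 2, for that contrast and for stages in GFP- cells. That fit had 1 array left in the GFP- E6.5 group, so no conclusion is drawn from it. Tfap2c at E6.5 between fractions was 0.0253 after quantile normalization. The other sign changes came from leaving out an array, and the cause was not tested. For Ifitm2, left-out values ran from -0.0866 to 0.26 (fractions, E6.5), -0.0631 to 0.10 (fractions, E7.5), -0.24 to 0.11 (change of the gap) and -0.0338 to 0.14 (fractions, averaged). For Ifitm3 they ran from -0.37 to 1.27 (stages, GFP-), -0.77 to 0.0464 (stages, averaged) and -0.50 to 0.32 (fractions, averaged). For Tfap2c they ran from -0.57 to 0.55 (fractions, E6.5) and -0.96 to 0.55 (stages, GFP+).

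Counts of all genes passing depended on the setting. With the replicate block they were 30 against 9 for fractions at E6.5, 39 against 11 for stages in GFP- cells, 8 against 1 for fractions averaged and 94 against 30 for stages averaged. Quantile normalization gave 16, 26, 10 and 50 in these contrasts. With no filter, stages in GFP+ cells gave 0 against 3 and fractions averaged 4 against 1. With probe sets averaged per gene, stages in GFP- cells gave 17 and fractions averaged 0, and single probe sets gave 4 for fractions at E6.5. Leaving out 1 array gave 0 to 1 for fractions at E6.5, 0 to 3 for stages in GFP+ cells, 3 to 10 for stages in GFP- cells, 0 to 1 for fractions averaged and 6 to 15 for stages averaged. Low signal limits Prdm1, Dppa3 and the dimmer Tfap2c probe set.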
